A study of Homo sapiens with 6 samples.

Results

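The PDGF family was examined in RNA-seq of H226 cells after knockdown of the lncRNA *SWINGN*. The study describes this human line as squamous lung carcinoma. The members were taken by gene name from the deposited count table and comprised the receptors *PDGFRA* and *PDGFRB* and the ligands *PDGFA*, *PDGFB*, *PDGFC* and *PDGFD*. Of these 6 names, 5 had a row among the 17222 gene names of the table, and 4 were among the 14660 genes tested. *PDGFRA* had no row and was not analysed here, and *PDGFD* had too few reads for the test. Control cells were transiently transfected with ASO_CTRL and knockdown cells with ASO_LINC#3, an oligonucleotide of antisense type that targets *SWINGN*, and both were collected after 48 h, with 3 libraries per condition. The knockdown rests on 1 oligonucleotide in 1 cell line, and p-values measure the spread between these libraries. The study states biological triplicates for its experiments in general, whereas the labels of these libraries give replicate numbers alone and do not say whether they came from separate cultures.

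PDGFs are secreted growth factors that act as dimers. PDGF-A and PDGF-B chains are trimmed inside the cell by furin-like convertases, whereas PDGF-C and PDGF-D leave the cell in a latent form and are activated by extracellular serine proteases. They bind the tyrosine kinase receptors PDGFRα and PDGFRβ, which dimerize, phosphorylate themselves and recruit SH2-domain proteins that feed the PI3 kinase, phospholipase C and RAS pathways. In most solid tissues, PDGFRβ is best known from pericytes and fibroblasts, while epithelial and tumour cells are a usual source of the ligands. The study examined *SWINGN* together with SMARCB1, a core subunit of the SWI/SNF chromatin remodelling complexes, and the comparison asked how the mRNA of the receptors and ligands differed after knockdown.

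The reads counted on genes ranged from 3686828 to 10546786 per library, with the fewest in ASO_LINC replicate 3. That library stood apart from replicates 1 and 2 in several measures given beside the results. Levels are CPM, the reads of a gene scaled to a library of 1000000 reads on genes, with the library sizes adjusted by TMM. The test was the quasi-likelihood F-test of edgeR, and genes counted as called when their p, adjusted over all genes tested by the Benjamini-Hochberg method, was under 0.01 and their log2 fold change went past 0.5 in either direction. By this rule 7.54% of the genes tested were called, 4.91% higher and 2.63% lower after knockdown. The *SWINGN* transcript was not analysed here, so its depletion was not checked in these libraries. Of 11 markers of squamous epithelium, 3 had a row (*KRT5*, *KRT6A* and *TRIM29*), with a summed level from 96.8 to 120 CPM in ASO_CTRL and from 64.2 to 80.2 CPM in ASO_LINC. The squamous markers *TP63*, *SOX2*, *KRT14* and *DSG3* had none. Markers of simple epithelium and mesothelium were abundant instead, 8 of 10 having a row. In ASO_CTRL, *KRT7* was at 3820 CPM and *CALB2*, the gene of calretinin, at 601 CPM. *UPK3B*, *WT1* and *MSLN* of the same list were at 49.4, 46 and 29.1 CPM. The summed level of the 8 genes was between 12400 and 13500 CPM in the control libraries. In ASO_LINC it was 7690 and 7310 CPM in replicates 1 and 2, and 12800 CPM in replicate 3. Of these 8 genes 1 was called, *CALB2*, which fell by 1.97 on the log2 scale, and without ASO_LINC replicate 3 the number called was 6, all lower, in a fit that called 17.2% of all genes tested. Neither of the 2 tested squamous markers was called, and 1 was called lower without that library.

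*PDGFRB*, which encodes the receptor for PDGF-B and PDGF-D, was lower in every knockdown library than in every control library. It was read 157, 119 and 205 times in ASO_CTRL replicates 1, 2 and 3, or 21.1, 20.5 and 19.6 CPM. In ASO_LINC replicates 1, 2 and 3 it was read 45, 40 and 29 times, or 6.61, 6.85 and 7.86 CPM. *PDGFRB* and *PDGFD* were the 2 of 5 listed members whose libraries did not overlap between the conditions, both lower after knockdown. Among all genes tested, 36.1% did not overlap, 17.3% being lower and 18.7% higher. The count of members is near that share, and nothing about the members is read from it. *PDGFD* was not itself among the genes tested. For *PDGFRB* the conditions were far apart, each knockdown library holding 32.4%, 33.6% or 38.6% of the control mean, and the spread within each condition was small. *PDGFRB* fell from 20.4 ± 0.80 CPM (SD, n = 3) to 7.11 ± 0.66 CPM (SD, n = 3), which is −1.53 on the log2 scale with an SE of 0.17 (95% interval from −1.92 to −1.14, edgeR quasi-likelihood adjusted p = 0.000305). It was the 1 member called of the 4 tested, beside 7.54% of all genes tested, and by the size of its decrease it took place 99 among the 386 genes called lower. In these bulk samples, fewer cells with the transcript and less of it per cell cannot be told apart. An exact permutation test of 3 libraries against 3 cannot give a two-sided p below 0.1, the value it gave here. The call held under all 18 alternatives, with log2 fold changes from −1.60 to −1.48. Of these, the adjusted p of 0.05 only loosened the threshold and could not lose the call.

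**Figure D1:**
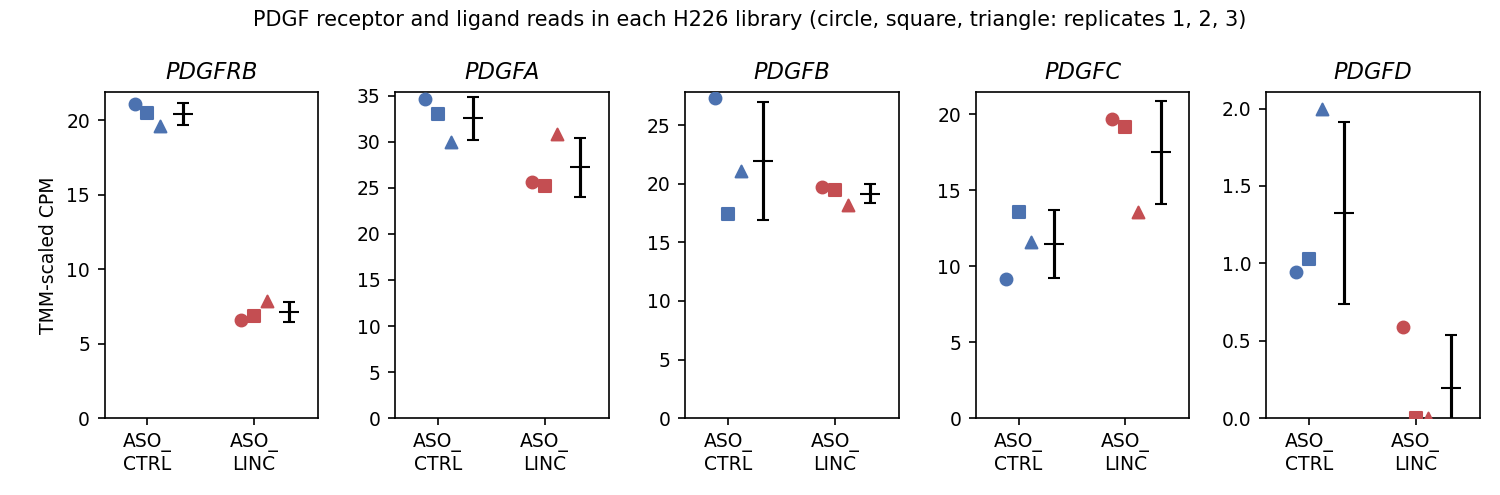
Level of each listed member in TMM-scaled CPM (vertical axes starting at 0, 1 scale per gene) in 3 ASO_CTRL (blue) and 3 ASO_LINC (red) libraries, with the mean and SD in black (for *PDGFD* in ASO_LINC, the bar is cut off at 0). *PDGFRB* sits between 19.6 and 21.1 CPM in the controls and between 6.61 and 7.86 CPM after knockdown, while *PDGFA*, *PDGFB* and *PDGFC* overlap between the conditions.

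*PDGFRB* spans bases 149493402 to 149535435 of chromosome 5, minus strand, in GRCh37 (hg19, the build of the alignment), and the annotated gene overlaps no other, so no antisense partner shares its reads in this annotation. Its annotated main transcript has 23 exons. The 250 bases before its start site are shown because the level of this transcript is the result of the comparison, together with those of *CAMK2A*, a neighbour described below, and of the first listed start of *PDGFA*, a ligand that was not called. The sequences are those of RefSeq on GRCh38.p14, all on the minus strand, printed 5′ to 3′, and capitals mark matches on either strand to CCAAT, to GGGCGG or to the AP-1 core TGANTCA. The stretches are chr5:150155846-150156095 (*PDGFRB*), chr5:150289774-150290023 (*CAMK2A*) and chr7:520227-520476 (*PDGFA*).
PDGFRB: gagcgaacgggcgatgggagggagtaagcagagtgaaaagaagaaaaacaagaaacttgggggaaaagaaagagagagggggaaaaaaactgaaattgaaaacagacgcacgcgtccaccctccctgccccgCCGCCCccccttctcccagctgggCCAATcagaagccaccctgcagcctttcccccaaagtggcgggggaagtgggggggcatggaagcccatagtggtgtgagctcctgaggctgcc
CAMK2A: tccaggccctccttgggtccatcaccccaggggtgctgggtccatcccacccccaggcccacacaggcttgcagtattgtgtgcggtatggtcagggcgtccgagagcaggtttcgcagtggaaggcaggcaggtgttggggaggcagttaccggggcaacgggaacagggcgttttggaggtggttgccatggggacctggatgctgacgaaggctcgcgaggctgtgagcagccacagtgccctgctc
PDGFA: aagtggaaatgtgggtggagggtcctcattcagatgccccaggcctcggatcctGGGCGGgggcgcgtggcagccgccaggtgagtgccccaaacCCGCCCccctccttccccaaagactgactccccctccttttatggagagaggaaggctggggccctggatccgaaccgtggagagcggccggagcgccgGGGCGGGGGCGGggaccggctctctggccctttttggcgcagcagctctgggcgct
The *PDGFRB* stretch holds 1 CCAAT on the plus sense of the gene, from 94 to 90 bases before the start, and 1 GGGCGG on the opposite strand, from 118 to 113 bases before it. Among the first listed promoters of 27305 genes in the RefSeq promoter set, cut to the same 250 bases, 33% hold CCAAT, 42.3% GGGCGG and 6.6% TGANTCA, so that these matches are common ones. The *PDGFA* stretch holds 4 matches to GGGCGG and none to the others, and the *CAMK2A* stretch holds none of these motifs. The *PDGFD* promoter holds 1 GGGCGG and none of the others. *PDGFB* and *PDGFC* are not shown.

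The study counted *PDGFRB* among the genes regulated by *SWINGN* and SMARCB1 together. It sequenced chromatin bound by SMARCB1 or marked by H3K27ac in BJ fibroblasts, and it reported changes at *PDGFRB* upon *SWINGN* knockdown. The study had also designed primer pairs for chromatin at this gene. They are shown because they say where in the *PDGFRB* locus its qPCR looked.
PDGFRB set 1 forward: ggggaagcaggctcagagagat
PDGFRB set 1 reverse: gcagagagaggatggagcttgt
PDGFRB set 2 forward: ggacagacaggacagtgcaaga
PDGFRB set 2 reverse: gctcagagagggtcaggactgt
In GRCh37, the first pair bounds 179 bases at chr5:149513964-149514142, in intron 4 of the main transcript and 21266 bases downstream of its start. The second pair bounds 191 bases at chr5:149522696-149522886, in intron 1 and 12522 bases downstream of the start. Neither product overlaps the promoter stretch printed above, and no chromatin data were analysed here.

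Around *PDGFRB*, its neighbour *CAMK2A* was also lower after knockdown, by nearly the same amount. The annotation places 15 other uniquely named genes within 250 kb, 11 of them protein-coding, of which 8 had a row and 7 were tested. *CAMK2A*, which encodes the α chain of calcium/calmodulin-dependent kinase II, lies 63619 bases from the nearest end of *PDGFRB*, on the same strand. It had 34.2, 35.8 and 31.0 CPM in the 3 control libraries and 9.85, 12.3 and 13.3 CPM in the 3 knockdown libraries. The conditions did not overlap, and *CAMK2A* fell by 1.52 on the log2 scale, with an SE of 0.17 (edgeR quasi-likelihood adjusted p = 0.000272). The call held in all 6 fits that left out 1 library, with adjusted p-values from 3.4e-05 to 0.0027. *ARSI*, an arylsulfatase gene 140471 bases away on the same side, had 98.7, 80.9 and 87.1 CPM in ASO_CTRL and 41.0, 41.2 and 71.0 CPM in ASO_LINC. Its conditions did not overlap either, but replicate 3 was nearer to the controls, and the difference of −0.81 on the log2 scale, with an SE of 0.21, was not past the threshold (edgeR quasi-likelihood adjusted p = 0.0221). With 1 library left out, the value for *ARSI* ranged from −1.11 to −0.67 (edgeR quasi-likelihood adjusted p from 7.42e-05 to 0.101). *ARSI* was called in 1 of these 6 fits, that without ASO_LINC replicate 3, which called 17.2% of all genes tested. *SLC26A2*, *TIGD6* and *HMGXB3* on one side and *TCOF1* and *CD74* on the other had log2 fold changes between −0.21 and 0.16, none of them called. *CSF1R*, the related receptor gene that lies 467 bases from *PDGFRB*, had no row. *SLC6A7* had no row either. It overlaps part of *CAMK2A* on the opposite strand, and reads there cannot be told apart where counting did not use strand. The 1 called gene of 7 tested stands beside 7.54% of all genes tested, and no difference of this window from other genes is read from it.

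**Figure D2:**
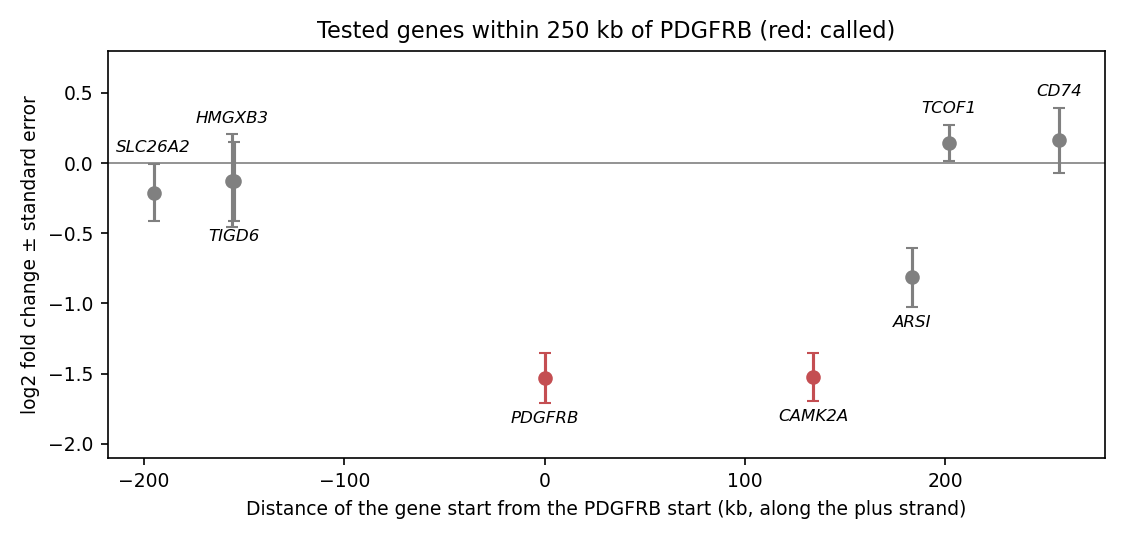
Log2 fold change (ASO_LINC minus ASO_CTRL, with its standard error) of *PDGFRB* and the 7 tested genes within 250 kb, against the distance of each gene's start from that of *PDGFRB* in kb. *PDGFRB* at −1.53 and *CAMK2A* at −1.52 (red) are called, *ARSI* lies at −0.81 and the other 5 between −0.21 and 0.16.

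Among the ligands, none was called, and the sign of the fitted change was not the same for all. *PDGFA* encodes the chain that binds PDGFRα alone, and lies on chromosome 7 of GRCh37 from 536895 to 559933. It had 34.6, 33 and 30 CPM in ASO_CTRL and 25.6, 25.2 and 30.9 CPM in ASO_LINC. Replicates 1 and 2 of the knockdown were below all controls, and replicate 3 was within their range. The fitted difference was −0.27 on the log2 scale with an SE of 0.15 (95% interval from −0.60 to 0.07, edgeR quasi-likelihood adjusted p = 0.254). With GC content and transcript length corrected for, an alternative added after seeing the data, the differences of the 3 knockdown libraries from the control mean went from −0.34, −0.37 and −0.07 to −0.30, −0.27 and −0.34, and *PDGFA* was not called then either (edgeR quasi-likelihood adjusted p = 0.0866).

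*PDGFB*, whose product binds both receptors, lies on chromosome 22 from 39619364 to 39640987. It had 27.3, 17.4 and 21.1 CPM in ASO_CTRL and 19.7, 19.5 and 18.2 CPM in ASO_LINC. The knockdown libraries were close together and lay within the wide range of the controls. The fitted difference of −0.20 on the log2 scale, with an SE of 0.19, was within the spread between the control libraries (95% interval from −0.61 to 0.22, edgeR quasi-likelihood adjusted p = 0.505). Without ASO_CTRL replicate 1, the highest of them, the value was −0.01. The GC and length correction moved the 3 knockdown libraries further apart. Their differences from the control mean went from −0.13, −0.14 and −0.24 to −0.051, −0.004 and −0.547. *PDGFB* was not called with it (edgeR quasi-likelihood adjusted p = 0.467).

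*PDGFC*, which encodes a latent ligand acting mainly through PDGFRα, was the ligand with the largest fitted change of those tested. It lies on chromosome 4 from 157681606 to 157892951. Its reads were 68, 79 and 122 in ASO_CTRL, or 9.16, 13.6 and 11.6 CPM, and 134, 112 and 50 in ASO_LINC, or 19.7, 19.2 and 13.6 CPM. Replicates 1 and 2 of the knockdown were above every control, whereas replicate 3 was level with ASO_CTRL replicate 2. The mean level was 11.5 ± 2.22 CPM without and 17.5 ± 3.40 CPM with knockdown (SD, n = 3 each), higher by 0.63 on the log2 scale with an SE of 0.21 (95% interval from 0.16 to 1.10, edgeR quasi-likelihood adjusted p = 0.062), which was beyond the fold bound but missed the bound on the adjusted p. With the GC and length correction the value was 0.56, and *PDGFC* was not called (edgeR quasi-likelihood adjusted p = 0.0404). Without ASO_LINC replicate 3, *PDGFC* was called, at 0.77 on the log2 scale (edgeR quasi-likelihood adjusted p = 0.00764), and 17.2% of the genes tested were called then. The part of the low read number of that library in this difference was not tested.

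*PDGFD*, whose product binds PDGFRβ, was near the limit of detection. It lies on chromosome 11 from 103777917 to 104035107 and was read 7, 6 and 21 times in ASO_CTRL and 4, 0 and 0 times in ASO_LINC. The 2 libraries without a read allow a level of up to 0.513 CPM in ASO_LINC replicate 2 and 0.813 CPM in replicate 3 (3 reads of each library, counting error only). The control libraries lay at 0.94, 1.03 and 2 CPM, and all 3 were above the knockdown libraries. With 34 reads against 4 in all, *PDGFD* did not pass the filter on low counts and has no value in the comparison. When no filter was applied, the fitted difference was −2.43 on the log2 scale with an SE of 0.83 (edgeR quasi-likelihood adjusted p = 0.0712), a value that depends on how low counts are smoothed. The spans of *PDGFB*, *PDGFC* and *PDGFD* also hold genes on the opposite strand, *DDI1* in that of *PDGFD*, and reads of overlapping genes cannot be told apart where counting did not use strand.

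**Figure D3:**
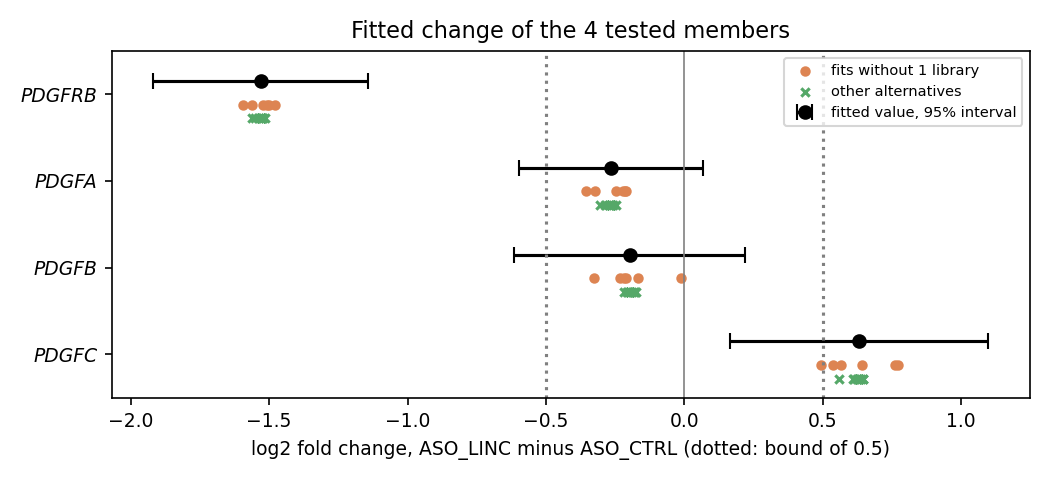
Fitted log2 fold change (ASO_LINC minus ASO_CTRL) of the 4 tested members with 95% intervals in black, the fits that each left out 1 library in orange and the other alternatives in green. The values of *PDGFRB* lie between −1.60 and −1.48, beyond the bound of 0.5 (dotted), and those of *PDGFC* between 0.49 and 0.77.

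The order of the members by level was then compared within each condition, in CPM per kb of the annotated main transcript. The cDNA was primed with oligo-dT, so that scaling by length is an approximation. In ASO_CTRL the levels were 11.9 ± 0.85 for *PDGFA*, 5.88 ± 1.35 for *PDGFB*, 3.58 ± 0.14 for *PDGFRB*, 2.51 ± 0.49 for *PDGFC* and 0.35 ± 0.15 for *PDGFD* (CPM per kb, SD, n = 3). The ranges of neighbours in this order did not overlap. In ASO_LINC, *PDGFA* and *PDGFB* came first again, at 9.92 ± 1.17 and 5.13 ± 0.22 CPM per kb (SD, n = 3). *PDGFC* came next at 3.82 ± 0.74 and *PDGFRB* followed at 1.25 ± 0.12 CPM per kb, so that these 2 genes had changed places, again without overlap. The ratio of *PDGFC* to *PDGFRB* reads within a library, which needs no scaling and was chosen after the values were seen, was 0.433, 0.664 and 0.595 in ASO_CTRL and 2.98, 2.80 and 1.72 in ASO_LINC. Its log2 was higher by 2.13 after knockdown. The exact permutation test gave two-sided p = 0.1, the smallest that 3 libraries against 3 allow. Since the pair was picked with its values known, no conclusion is drawn from that p. The summed ligands were within 18.6 to 22.2 CPM per kb in all 6 libraries. The share of *PDGFC* in that sum was between 9.02% and 14.9% in ASO_CTRL and was 22.6%, 22.5% and 15.5% in ASO_LINC.

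**Figure D4:**
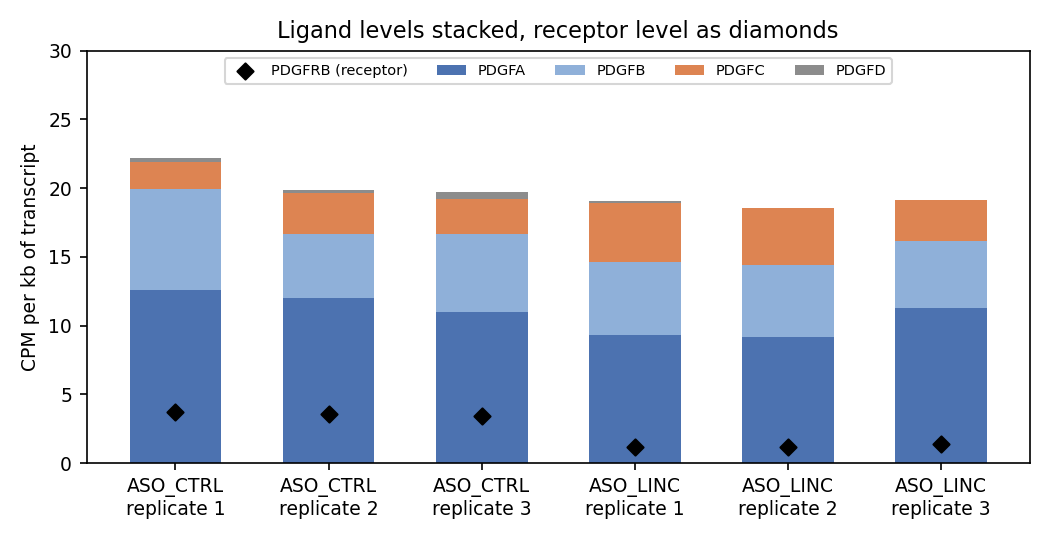
Level of the 4 ligands stacked (bars) and of *PDGFRB* (diamonds, not stacked) in each of the 6 libraries, in CPM per kb of transcript. The ligand sums lie between 18.6 and 22.2 in all libraries, while *PDGFRB* lies between 3.43 and 3.71 in ASO_CTRL and between 1.16 and 1.38 in ASO_LINC.

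The genes whose levels over the 6 libraries were most like those of *PDGFRB*, by the Pearson correlation of log2 CPM with 10220 other genes of at least 50 mean counts, were *TNS3* (r = 0.9999), *PPL* (r = 0.9972) and *FGF18* (r = 0.9964). *TNS3*, which encodes the focal adhesion protein tensin 3, fell from 109 to 47.5 CPM, *PPL*, the gene of the desmosome-associated protein periplakin, from 59.8 to 31.2 CPM, and *FGF18*, a fibroblast growth factor, from 221 to 52.8 CPM. All 6 points of such a correlation come from the same libraries of 2 conditions, and it is given as a description. For *PDGFC* the most similar genes were *KIF5B* (r = 0.9977), *LATS1* (r = 0.9953) and *TIFA* (r = 0.9941), for *PDGFA* *RPL13AP7*, *AKR1B1* and *ZNF76*, and for *PDGFB* *RPS21*, *ELP2* and *POMP*.

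Among the proteases and binding proteins of the ligands, both plasminogen activators were higher, while *SPARC* and *PCSK6* were lower. Of 14 genes in this list 10 were tested, and 2 were called higher and 2 lower, beside 4.91% and 2.63% of all genes tested. The median log2 fold change of the list was −0.11 beside 0.00 over all genes tested. *PLAT*, the tissue plasminogen activator and a known activator of latent PDGF-C, rose from 79.5 ± 9.76 to 1480 ± 227 CPM (both SD, n = 3). *PLAU*, the urokinase that can activate latent PDGF-D, had 0.28 ± 0.16 CPM in ASO_CTRL and 3.82 ± 0.35 CPM in ASO_LINC. Its control level rests on 3, 2 and 1 reads and is near the limit of detection. *PCSK6*, a furin-like convertase, fell by 1.28 on the log2 scale (SE 0.25, edgeR quasi-likelihood adjusted p = 0.00619). *SPARC*, a matrix protein that binds PDGF-B, fell by 0.63 (SE 0.11, edgeR quasi-likelihood adjusted p = 0.00325). *PLAT* and *PLAU* kept their calls whichever library was left out, whereas *PCSK6* and *SPARC* lost theirs with replicate 1 or 3 of ASO_CTRL or replicate 1 or 2 of ASO_LINC left out. *FURIN*, *PCSK7*, *LRP1*, *NRP1*, *THBS1* and *HSPG2* were not called, with log2 fold changes from −0.94 for *HSPG2* to 0.58 for *NRP1*.

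The adaptors and effectors of the receptors were mostly not called. All 40 had a row and 37 were tested, of which 3 were called, all higher, a share of 8.11% beside 7.54% of all genes tested. *MAP2K1*, the kinase MEK1, rose from 78.3 ± 7.53 to 223 ± 49.2 CPM (both SD, n = 3), the kinase gene *YES1* from 31.7 ± 5.59 to 58.1 ± 10.4 CPM and the adaptor gene *CRKL* from 25.6 ± 0.44 to 39.9 ± 2.38 CPM. *MAP2K1* kept its call whichever library was left out, and was the 1 gene of the list called in 5 of those 6 fits. With ASO_LINC replicate 3 left out, the number was 10, with 5 higher and 5 lower, beside 17.2% of all genes tested in that fit. Of the 22 tested genes of SH2-domain proteins in the list, *YES1* and *CRKL* were the 2 called, and log2 fold changes ranged from −0.78 for *STAT5A* to 1.22 for *GRB14*, neither of which was called. Among the others not called, *SRC*, *GRB2*, *SHC1* and *PTPN11* stood between −0.08 and 0.08. *CRK* and *NCK2* stood at 0.51 and 0.58, and *FYN* and *PIK3R2* at −0.57 each. At an adjusted p of 0.05, 11 genes of the list were called, beside 2465 of the 14660 genes tested. The median of the list was 0.06.

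Beside 7.54% of all genes tested, 2 of 9 tested genes for proteins that attenuate receptor signalling were called, both higher. These were *CBL*, a ubiquitin ligase of activated receptors, which rose from 76.6 ± 0.87 to 115 ± 7.49 CPM (both SD, n = 3), and the phosphatase gene *PTPN12*, which rose from 19.9 ± 2.02 to 33.7 ± 4.82 CPM. Both lost the call when any library other than ASO_LINC replicate 3 was left out. *PTPRJ*, a receptor-type phosphatase known to act on PDGFRβ, stood at −0.58 on the log2 scale with an SE of 0.14 and was not called (edgeR quasi-likelihood adjusted p = 0.0177). The median of these 9 genes was 0.16.

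Early response genes are induced by many growth factors within minutes to hours. Of 12 such genes tested, 8 were called after knockdown, beside 7.54% of all genes tested. All 8 were higher, beside 4.91% of all genes tested, and the median log2 fold change over the list was 1.31. *FOS* rose by 3.32, *EGR1* by 2.92, *ATF3* by 1.85, *FOSL1* by 1.69, *JUNB* by 1.59, *IER2* by 1.05, *DUSP1* by 0.78 and *JUN* by 0.65 on the log2 scale. *FOS* and *EGR1* were low in ASO_CTRL, at 1.85 ± 0.79 and 0.61 ± 0.38 CPM (SD, n = 3). *MYC*, *NR4A1*, *IER3* and *SRF* were not called, with log2 fold changes from 0.14 for *SRF* to 1.56 for *NR4A1*. *FOS*, *ATF3*, *FOSL1* and *JUNB* kept their calls whichever library was left out. *EGR1* lost its call without ASO_CTRL replicate 3, *DUSP1* without ASO_CTRL replicate 2 or 3, and *JUN* and *IER2* without any library other than ASO_LINC replicate 3, whose omission brought the number called to 9, beside 17.2% of all genes tested in that fit.

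Of related receptor tyrosine kinases and their ligands, 2 receptors were called lower and 2 ligands higher. *FLT3* and *KDR*, which encode a receptor of the same structural class and a receptor for VEGF, fell by 2.50 and 1.29 on the log2 scale, *FLT3* from 2.18 ± 0.21 to 0.35 ± 0.09 CPM and *KDR* from 7.44 ± 0.49 to 2.95 ± 0.72 CPM (both SD, n = 3). In ASO_LINC *FLT3* had 3, 2 and 1 reads, near the limit of detection. The calls of *FLT3* and *KDR* held only when the library left out was ASO_LINC replicate 3. *VEGFA* and *VEGFC*, ligands of the same cystine-knot family as PDGF, rose by 2.17 and 1.41 on the log2 scale and kept their calls whichever library was left out. *CSF1*, *VEGFB*, *KITLG* and *PGF* were not called, standing on the log2 scale at −0.45, −0.09, 0.70 and 1.14. In total 4 of the 8 tested genes of this list were called, beside 7.54% of all genes tested. *KIT*, *CSF1R*, *FLT1*, *FLT3LG* and *VEGFD* had no row, and *FLT4* and *IL34* were under the filter. The receptor gene *FLT4* had 4, 3 and 2 reads in ASO_CTRL and 7, 11 and 5 in ASO_LINC. The ligand gene *IL34* had 2, 2 and 3 reads in ASO_CTRL and 4, 3 and 10 in ASO_LINC. Both are near the limit of detection. Their CPM was higher in every knockdown library, as was that of 18.7% of all genes tested, and nothing is read from it.

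Markers of the cells that usually carry PDGFRβ, pericytes and fibroblasts, were looked at beside the receptor. Of 15 such genes 11 had a row and 9 were tested. The 2 called genes were both collagens and both lower, beside 2.63% of all genes tested called lower. *COL1A1* fell from 321 ± 61.3 to 125 ± 8.98 CPM and *COL3A1* from 10.8 ± 1.36 to 3.49 ± 1.18 CPM (both SD, n = 3). *COL3A1* lost the call without ASO_CTRL replicate 2 or 3 or ASO_LINC replicate 2. The pericyte genes *RGS5*, *MCAM*, *NOTCH3* and *CSPG4* stood at −0.33, −0.25, −0.69 and 0.70 on the log2 scale, none of them called, and *THY1*, a fibroblast marker, was at −0.17. The fibroblast markers *COL1A2*, *DCN*, *LUM* and *FAP* had no row. The summed level of the 11 genes was between 628 and 731 CPM in ASO_CTRL and between 377 and 490 CPM in ASO_LINC. *COL1A1* was the largest single part of this sum and of its fall. The tested genes of the list other than the collagens overlapped between the conditions, *ACTA2* and *TAGLN* standing at −0.58 and −0.28. Among all genes tested, 36.1% did not overlap, and nothing about the markers is read from their overlap. Under the filter on low counts, *CD248* had 3, 3 and 5 reads in ASO_CTRL and 1, 1 and 0 in ASO_LINC. Its CPM was lower in every knockdown library, whereas *ANPEP*, also under the filter, overlapped. The part of the summed level in the *PDGFRB* result was not tested. Of the markers of blood and endothelial cells 1 of 6 had a row, *CD68*, with 1.37 ± 0.45 CPM without and 4.13 ± 2.07 CPM with knockdown (SD, n = 3 each), and it was not called.

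**Figure D5:**
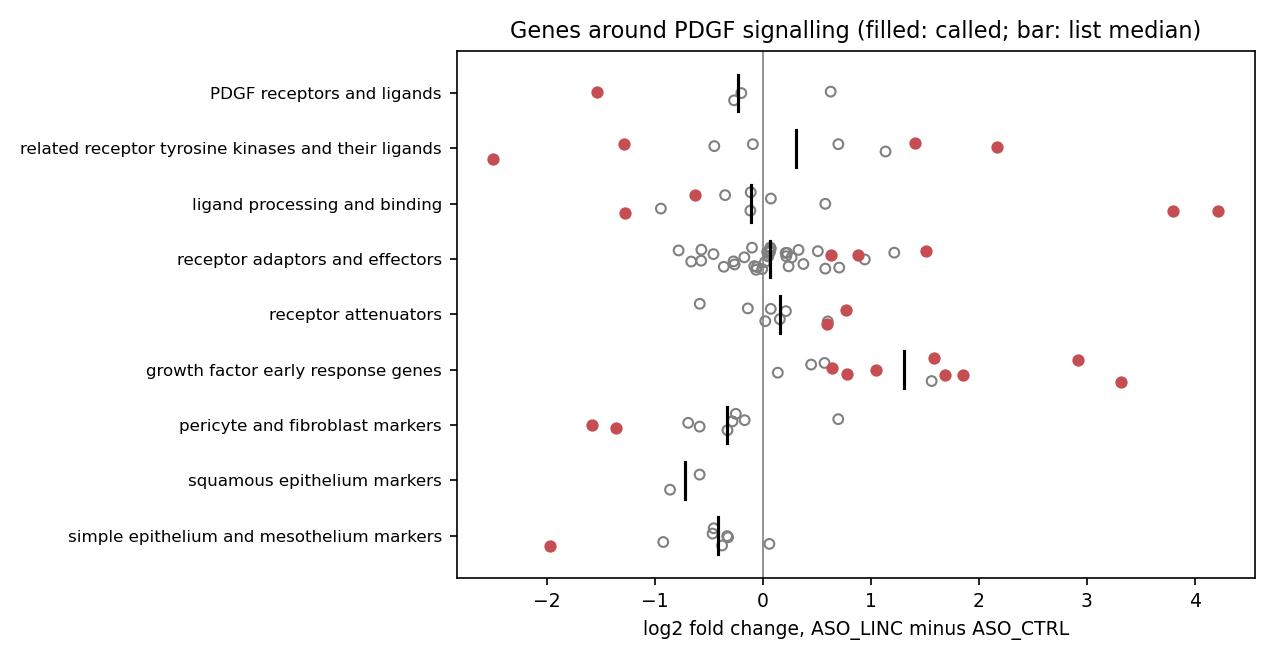
Log2 fold change (ASO_LINC minus ASO_CTRL) of each tested gene of the lists except that of blood and endothelial markers, with called genes filled and the list median as a bar (points are spread vertically for legibility). Of the early response genes 8 of 12 are called, all to the right of 0, and of the adaptors and effectors 3 of 37, with a median of 0.06. The share called among all genes tested is 7.54%.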

How the data were processed

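RNA-seq counts of 6 H226 libraries were analysed, 3 transfected with ASO_CTRL and 3 with ASO_LINC#3. The authors aligned single-end reads to hg19 with STAR, and the deposited table holds raw read counts per gene name, without normalization. How reads were counted, with which gene models and whether by strand, is not given in the sources used here. A methods paragraph of the study names BJ cells for its RNA-seq, while the labels name H226. Its last 4 rows, reads assigned to no gene, held 24.8% to 28.1% of each library and were left out, and 0 columns of other samples were present. Whether an unlisted gene had no reads is not known.

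The comparison used edgeR 4.0.16 under R 4.3.3 (filterByExpr, TMM, quasi-likelihood F-test, no replicate block). edgeR and the thresholds are those of the study's methods. The alternatives were DESeq2 1.42.0, voom of limma 3.58.1, other scalings and filters, robust dispersion, glmTreat, an adjusted p of 0.05, the replicate block and leaving out each library. Intervals use the fitted standard error. The procedure was tested on simulated data.

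The members and lists were chosen with earlier results of these data known. Named genes are the members, every called gene of a list (all had 8 or fewer) with uncalled ones as examples, the genes within 250 kb of *PDGFRB*, and the 3 genes most like each member of at least 50 mean counts. Positions, transcript lengths and GC content came from GENCODE lifted to GRCh37, which matched 13370 of 17222 names directly and 977 by a RefSeq synonym. The GC and length correction (splines of 5 degrees of freedom, 87.2% of tested genes) was added after seeing the data.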

Additional observations from a re-analysis of the deposited data

How the results depend on the processing

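The adjusted p of 0.05 and glmTreat kept the fitted changes of the main comparison. Neither could alter a direction, and the looser threshold could not lose a call. The 4 tested members kept their direction in all 18 alternatives. *PDGFRB* was called in each of them (adjusted p from 6.07e-08 to 0.00356), *PDGFA* and *PDGFB* in none, and *PDGFC* in 1, that without ASO_LINC replicate 3, its log2 fold change ranging from 0.49 to 0.77 in the fits that left out 1 library. With the replicate number as a block, the log2 fold change of *PDGFRB* was −1.53 (edgeR quasi-likelihood adjusted p = 0.00146), and no call of a member changed. The correlations of same-numbered libraries' deviations were 0.059, −0.149 and −0.18, so the numbers were not taken to pair the libraries. Of all genes tested, 1106 were called, against 2465 at an adjusted p of 0.05, 384 under glmTreat, 656 with the replicate block, 1703 with the GC and length correction, and 359 (without ASO_CTRL replicate 3) to 2616 (without ASO_LINC replicate 3) with 1 library left out. In the same order, the 3 called adaptors and effectors became 11, 1, 1 and 5, and 1 to 10 with 1 library left out. The 4 called ligand proteases and binders became 2 under glmTreat, 2 with the replicate block and 2 to 5 with 1 library left out. The ratio of *PDGFRB* to *PDGFRA* had been planned and was not run, since *PDGFRA* had no row. *PDGFD*, with 34 reads against 4, was under the filter on low counts and had a test only without that filter (edgeR) or from DESeq2, which gave it no adjusted p.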

Other observations

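*PDGFRL*, a gene named for its likeness to the PDGF receptors and not a member of the group described, was at 13.1 ± 1.56 CPM without and 14.1 ± 2.68 CPM with knockdown (SD, n = 3 each). The conditions overlapped, and the fitted difference was 0.13 on the log2 scale with an SE of 0.20 (95% interval from −0.31 to 0.56, edgeR quasi-likelihood adjusted p = 0.70).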
